A study of Sus scrofa domesticus with 6 samples.

Results

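Pericytes and vascular smooth muscle cells, together called mural cells, wrap the endothelial tubes of blood vessels, and 9 genes that mark or recruit them were followed in the developing jaw joint of the pig. The genes were chosen by name: RGS5, MCAM and CSPG4 for pericytes, PDGFB and PDGFRB for the signal that recruits them, and ACTA2, MYH11, TAGLN and CNN1 for the contractile apparatus. Of the 25322 gene rows in the deposited table, 7 carry such a name. CSPG4 and MYH11 are not among the names in the table. For these 2 genes a separate list of Ensembl IDs and symbols gave the row, and their values are described with that source in mind.

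The mandibular condyle, the rounded knob of the lower jaw in the jaw joint, grows as cartilage that is replaced by bone. Condyle RNA of miniature pig embryos was sequenced at gestation days 85 and 45, with 3 libraries per age and no treatment or genetic change named in the labels. The labels call the tissue cartilage and its cells chondrocytes and osteocytes, and do not say whether a library holds 1 embryo or a pool, so p-values measure only the spread between these libraries. The question of the series is how the condyle changes as it ossifies.

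Mural cells are thought to be drawn onto new capillaries by platelet-derived growth factor B, which endothelial cells secrete and which binds the receptor PDGFRB on pericyte precursors. Pericytes sit singly on capillaries and carry RGS5, while the smooth muscle of arterioles and arteries carries contractile proteins under the control of serum response factor and its partner myocardin. Bone that grows from cartilage depends on vessels invading the cartilage, which is itself free of vessels. In bulk tissue, fewer cells of a type and less RNA per cell cannot be told apart.

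Total counts ran from 12546729 to 16559616 per library. Levels below are in CPM, counts divided by the TMM-adjusted library size, which compare 1 gene between libraries, or deposited FPKM, which are also scaled per length and so compare genes. A fold change sets day 85 over day 45, with 3 libraries at each age, and its standard error follows it; a gene was called at a Benjamini-Hochberg adjusted p under 0.05 over all 15022 genes tested by edgeR's quasi-likelihood test. Day 85 replicate 2 stood apart: its Spearman correlation over genes was 0.931 and 0.938 with the other day 85 libraries, which correlated at 0.980 with each other. Skeletal muscle markers made up 3.91% and 3.07% of day 85 replicates 1 and 3 but 0.241% of replicate 2, and 0.405% to 1.02% of the day 45 libraries. Cartilage markers took 0.142% to 0.508% at day 85 and 1.335% to 1.504% at day 45, so RNA of skeletal muscle markers was present beside that of the labelled tissue. Schwann cell and melanocyte markers took 0.207% of day 85 replicate 2 and 0.0103% to 0.0218% of every other library.

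At day 85 the condyle libraries held more RGS5, MCAM and PDGFB than at day 45, between 2.24-fold and 3.98-fold, and less CSPG4. The contractile genes ACTA2, TAGLN and CNN1 and the receptor PDGFRB were not past the threshold, and neither was MYH11. All 9 rows passed the filter on low counts. Of the 7 genes named in the table, 3 were called higher and 0 lower, where 3.90% of all tested genes were called higher and 2.66% lower. Scaled by library totals alone, 437 genes were called higher and 598 lower, against 586 and 400 here, and RGS5 missed the threshold (adjusted p = 0.0513). Of the 2 genes found through the ID list, CSPG4 was called lower. Every day 85 library lay above every day 45 library for RGS5, MCAM, PDGFB, TAGLN and MYH11, a pattern that 17.4% of tested genes showed. For CSPG4 every day 85 library lay below, as for 17.6% of tested genes. An unadjusted p under 0.05 was reached by 29.1% of all tested genes, and the median log2 fold change over them was 0.02. Without day 85 replicate 2, where 22.3% of tested genes were called in either direction, RGS5, MCAM, PDGFB and CSPG4 kept their calls and no other member gained one.

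**Figure D1:**
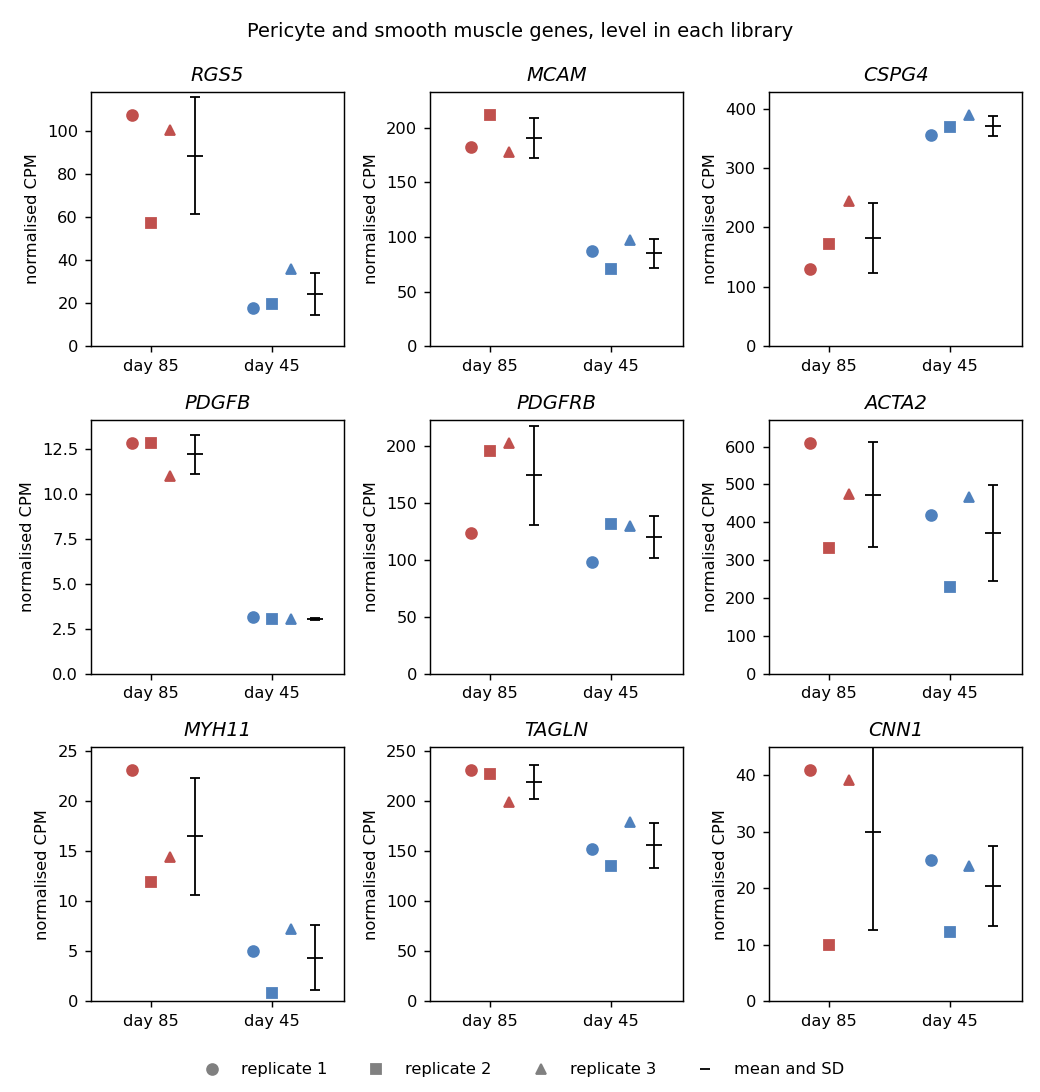
Normalised CPM of the 9 genes in each library, with day 85 on the left and day 45 on the right of each panel; symbols mark replicates and bars the mean and SD of 3 libraries. RGS5, MCAM, PDGFB, MYH11 and TAGLN have no day 85 library within the day 45 range, CSPG4 lies wholly below it, and PDGFRB, ACTA2 and CNN1 overlap.

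RGS5 encodes a regulator of G-protein signalling that speeds the shut-off of G proteins downstream of vasoactive receptors. Its row lies on chromosome 4 at 94999826 to 95053682, counted as the deposited table counts them, on a genome build that was not stated. It reached 107, 57.3 and 100.5 CPM in day 85 replicates 1, 2 and 3, against 17.6, 19.3 and 35.6 CPM at day 45. The lowest day 85 library, replicate 2, was still above the highest day 45 library. The mean was 88.3 ± 27.1 CPM at day 85, against 24.2 ± 9.92 CPM at day 45 (SD), a 3.65-fold rise (log2 change 1.87, standard error 0.36, adjusted p = 0.0386). The call needs most of the libraries: without day 85 replicate 2 it held, the log2 change then being 2.10 (adjusted p = 0.00890), while leaving out any other single library gave 1.67 to 2.25 with adjusted p from 0.0533 to 0.163.

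MCAM, also called CD146, is an adhesion molecule of pericytes, smooth muscle and endothelium, and it is also found on melanoma cells, for which it was named. The gene lies on chromosome 9 at 51548581 to 51557233. Its levels were 183, 212 and 178 CPM in the day 85 libraries and 87.5, 70.8 and 97.0 CPM in the day 45 libraries. The ages were widely separated and each was narrow, with a coefficient of variation of 9.60% at day 85 and 15.6% at day 45. MCAM rose 2.24-fold (log2 change 1.16, standard error 0.15, adjusted p = 0.0200). Unlike RGS5, it was highest in day 85 replicate 2, the library with the highest share of Schwann cell and melanocyte markers; the part of those cells in its level was not tested. Without that library MCAM was still called, its log2 change being 1.08 (adjusted p = 0.00584), and without any other single library its adjusted p ran from 0.0508 to 0.110.

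CSPG4 encodes the NG2 proteoglycan, a surface protein of pericytes that is also made by cartilage cells and by precursors of oligodendrocytes. Its row, given by the ID list, lies on chromosome 7 at 62658015 to 62678673. CSPG4 stood at 129, 172 and 245 CPM in day 85 replicates 1, 2 and 3, against 355, 369 and 389 CPM at day 45. The day 45 libraries were close together and all above the day 85 libraries, which were spread over a wider range. It fell 2.04-fold, to 182 ± 58.3 CPM at day 85 against 371 ± 17.2 CPM at day 45 (log2 change -1.03, standard error 0.23, adjusted p = 0.0491). This lies just inside the threshold; without day 85 replicate 2 the adjusted p was 0.0421, and without each of the others it ran from 0.0502 to 0.165.

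CSPG4 went the opposite way to RGS5 and MCAM. The cartilage proteoglycan aggrecan, ACAN, reached 233, 947 and 990 CPM in the day 85 libraries, against 2696, 2832 and 2167 CPM at day 45 (log2 change -1.83, standard error 0.53, adjusted p = 0.0865). Of the 10 cartilage markers, all had a negative log2 fold change and 3 were called lower by edgeR, where 2.66% of all tested genes were. Their median log2 change was -2.29. The part of cartilage cells in the CSPG4 level was not tested. Among the day 85 libraries replicate 1 was lowest and replicate 3 highest for ACAN, as they were for CSPG4. Every other cartilage marker was instead highest in day 85 replicate 2.

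PDGFB, the ligand, is the member with the smallest p. Its row lies on chromosome 5 at 6331337 to 6333160, a span of 1824 bases, and it held 166, 192 and 166 counts in the day 85 libraries, against 51, 42 and 46 at day 45. Normalised levels were 12.8, 12.8 and 10.9 CPM at day 85, against 3.12, 3.03 and 3.01 CPM at day 45. Within each age the libraries were nearly alike, day 85 replicate 2 included, and the gap between ages was much wider than either spread. PDGFB rose 3.98-fold (log2 change 1.99, standard error 0.17, adjusted p = 0.0155). With any single library left out the log2 fold change stayed between 1.93 and 2.07. The call held without day 85 replicate 2 (adjusted p = 0.00242) and without day 85 replicate 3 (adjusted p = 0.0424); without day 85 replicate 1 or any day 45 library the adjusted p ran from 0.0509 to 0.102.

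PDGFRB, the receptor tyrosine kinase for this ligand on pericytes, smooth muscle and many fibroblasts, was measured at 124, 196 and 203 CPM for day 85, against 98.3, 131 and 130 CPM in the day 45 libraries. Day 85 replicate 1 fell within the day 45 range and the other 2 lay above it. Its log2 change, 0.54, had a standard error of 0.22 and did not pass (adjusted p = 0.166).

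The annotation limits what the PDGFRB value means. Its row spans 167700 bases on chromosome 2, from 157910126 to 158077825, and 5 other rows overlap it. Of those, 1 was higher and 2 were lower in every day 85 library. ENSSSCG00000025399, which has no name in the table, stood at 35.1, 121 and 32.0 CPM at day 85, against 9.98, 22.9 and 15.9 CPM at day 45. The row named CH242-138G12.1 stood at 73.05, 102.4 and 83.5 CPM at day 85, against 145, 194 and 129 CPM at day 45 (log2 change -0.85, standard error 0.20, adjusted p = 0.0536). ENSSSCG00000014446, a low row without a name, was called lower, at 1.005 to 5.33 CPM at day 85 against 14.6 to 17.45 CPM at day 45 (log2 change -2.56, standard error 0.56, adjusted p = 0.0494). The ID list gives the name PDGFRB to a further row, ENSSSCG00000022741, at 158113410 to 158121876 on the same chromosome. That row had more counts and stood at 209, 247 and 242 CPM at day 85, against 175, 222 and 184 CPM at day 45, and its log2 change was 0.27 (standard error 0.14, adjusted p = 0.259). Neither row was past the threshold, and how reads were divided where rows overlap was not stated.

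The other ligands and receptors of the family did not pass either. Of 5 tested, 0 were called by edgeR in either direction, at an adjusted p of 0.0716 or more; 1 had an unadjusted p under 0.05, DESeq2 called 1 higher and limma-voom 0. Over all genes DESeq2 called 12.6% higher and 10.8% lower, and limma-voom 3.48% and 2.66%. The median log2 fold change was 0.27. PDGFRA, the receptor of mesenchymal progenitors, stood at 61.2 ± 5.08 CPM at day 85, against 50.7 ± 12.0 CPM at day 45 (SD; log2 change 0.27, standard error 0.18, adjusted p = 0.360). PDGFRL, a receptor-like gene of the family, stood at 43.5 ± 9.79 and 47.8 ± 10.8 CPM in the day 85 and day 45 libraries (SD; adjusted p = 0.722). PDGFD, a second ligand that binds PDGFRB, showed a log2 change of 0.70 (standard error 0.19) and every day 85 library above day 45, and is named after its values were seen.

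**Figure D2:**
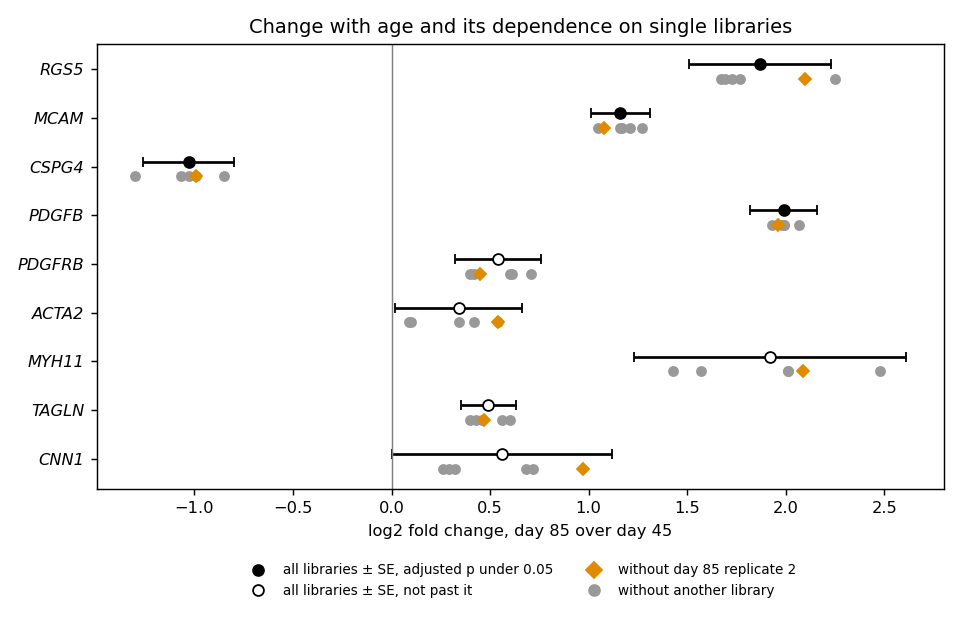
Log2 fold change of day 85 over day 45 for each of the 9 genes with its SE (black), filled where the adjusted p was under 0.05; below each stand the values with 1 library left out, day 85 replicate 2 as a diamond. No member changed sign when a library was left out, while ACTA2 came as low as 0.09 and CNN1 ranged from 0.26 to 0.97.

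ACTA2, the alpha actin of smooth muscle, was the most abundant member at both ages. It lies on chromosome 14 at 109852735 to 109871621. It stood at 610, 333 and 474 CPM in day 85 replicates 1, 2 and 3 and at 420, 229 and 468 CPM in day 45 replicates 1, 2 and 3. The ages overlapped, and the spread within each age was as wide as the gap between the means of 472 ± 139 CPM at day 85, against 372 ± 127 CPM at day 45 (SD). The log2 change, 0.34, was about as large as its standard error, 0.32 (adjusted p = 0.514). It was 0.09 without day 45 replicate 2 and 0.10 without day 85 replicate 1.

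TAGLN encodes transgelin, an actin-binding protein that appears early in smooth muscle differentiation and also in stromal cells under tension. It lies on chromosome 9 at 49631072 to 49636680. Its levels were 231, 227 and 199.6 CPM at day 85, against 152, 135 and 179.5 CPM at day 45. The ages did not overlap, but the gap between the nearest libraries was small. TAGLN changed by 0.49 on the log2 scale, with a standard error of 0.14 and an adjusted p of 0.0837 that did not pass. DESeq2 put TAGLN past the threshold with the same log2 value (adjusted p = 0.00567).

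CNN1, calponin, an actin-binding inhibitor of myosin in differentiated smooth muscle, lies on chromosome 2 at 70536387 to 70544292. Its level was 40.9, 9.998 and 39.2 CPM in the day 85 libraries, against 25.04, 12.2 and 24.01 CPM at day 45. Day 85 replicate 2 was the lowest of all 6 libraries, and replicates 1 and 3 were the highest. The log2 change of 0.56 equalled its standard error of 0.56 (adjusted p = 0.542). Without day 85 replicate 2 it was 0.97 (adjusted p = 0.0692).

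MYH11, the myosin heavy chain restricted to smooth muscle, is the most specific contractile marker of the set. Its row, given by the ID list, lies on the unplaced scaffold GL893077.1 at 10937 to 50415. It held 299, 179 and 219 counts in the day 85 libraries, against 82, 11 and 110 at day 45. That made 23.1, 11.9 and 14.4 CPM at day 85, against 5.02, 0.793 and 7.20 CPM at day 45. All day 85 libraries were higher, but day 45 replicate 2 was far below its group. The log2 change was 1.92, as large as that of RGS5, but its standard error was larger at 0.69 (adjusted p = 0.137), and without day 45 replicate 2 it was 1.43. A further row on that scaffold, ENSSSCG00000020978, at 1133 to 9650, has no name and ranged from 9.96 to 21.95 CPM at day 85 and from 2.67 to 10.5 CPM at day 45 (log2 change 1.33, standard error 0.54, adjusted p = 0.165).

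At each age ACTA2, CNN1 and MYH11 were lowest in replicate 2, which is also the library of each age with the smallest share of skeletal muscle markers. Skeletal muscle actin, ACTA1, ranged at day 85 between 714 CPM in replicate 2 and 8543 CPM in replicate 1, and at day 45 between 205 CPM in replicate 2 and 559 CPM in replicate 3. ACTC1, the cardiac actin that fetal skeletal muscle also makes, stood at 4333, 341 and 4087 CPM at day 85, against 2387, 1161 and 2623 CPM at day 45. PECAM1, an adhesion protein of endothelial junctions, was likewise lowest in replicate 2 at each age, at 349 CPM at day 85, against 94.6 CPM at day 45. The part of skeletal muscle in the contractile genes was not tested.

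**Figure D3:**
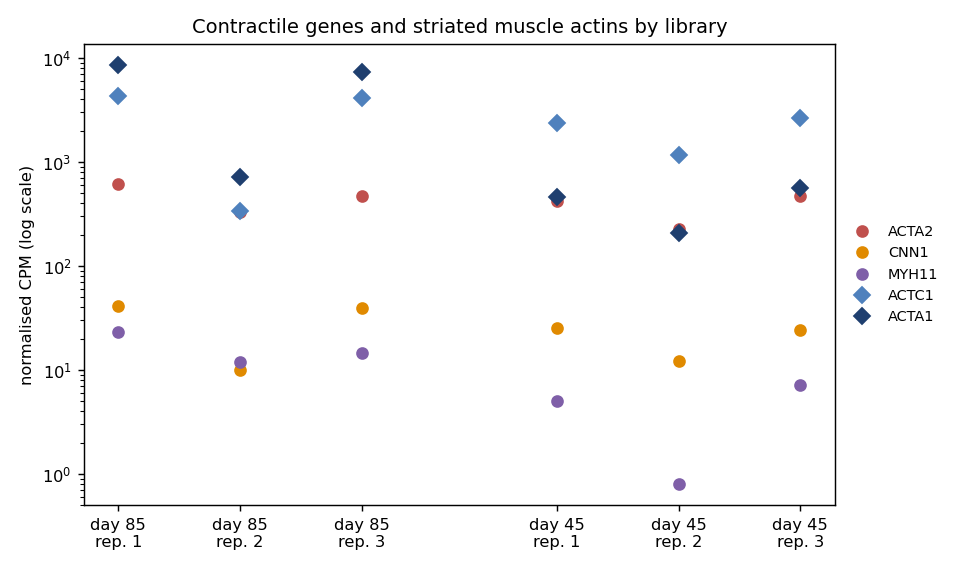
Normalised CPM on a log scale of ACTA2, CNN1 and MYH11 (circles) and of the striated muscle actins ACTC1 and ACTA1 (diamonds), with the day 85 libraries on the left and the day 45 libraries on the right. Replicate 2 is the lowest of its age for each of the 5 genes, and at day 85 ACTA1 differs between libraries far more than ACTA2, at 714 to 8543 CPM against 333 to 610 CPM.

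The muscle actins are near-identical proteins, so reads of the coding part of these genes may have been split between them and the single values are uncertain. Among FPKM of the 4 muscle actins, ACTA2 made up 4.03%, 21.7% and 3.54% in day 85 replicates 1, 2 and 3 and 11.2%, 12.5% and 11.2% at day 45. ACTG2, the enteric smooth muscle actin, made up 0.732% or less in every library. ACTA1 took 51.4% to 62.3% at day 85 and 12.4% to 14.8% at day 45, where ACTC1 led with 73.6% to 74.9%. Smooth muscle actin was thus the smaller part of muscle actin in every library, and its share was highest in day 85 replicate 2, where striated actin was lowest.

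Compared per length, the order of the members shifted between the ages. By mean FPKM at day 85, ACTA2 (286 ± 96.4) and TAGLN (182 ± 17.0) led, followed by PDGFRB (43.6 ± 9.80), RGS5 (43.0 ± 14.8), MCAM (32.1 ± 1.84), PDGFB (24.9 ± 2.46), CSPG4 (22.7 ± 7.21), CNN1 (16.6 ± 9.98) and MYH11 (6.84 ± 2.74; SD, n = 3 each). At day 45 ACTA2 (230 ± 87.5 FPKM) and TAGLN (133 ± 26.8) also led, but CSPG4 came next at 47.6 ± 4.76, before PDGFRB (31.0 ± 5.63), MCAM (14.8 ± 3.06), RGS5 (12.1 ± 5.71), CNN1 (11.5 ± 4.30), PDGFB (6.39 ± 0.316) and MYH11 (1.87 ± 1.46). The ranges of mean ± SD overlapped between neighbours from PDGFRB to MCAM and from PDGFB to MYH11 at day 85, and from MCAM to CNN1 at day 45. Those of ACTA2 and TAGLN overlapped at both ages. Of RGS5, MCAM and CSPG4, CSPG4 had the highest mean FPKM at day 45 and the lowest at day 85. In day 85 replicate 3, however, it stood at 30.8 FPKM against 30.2 for MCAM.

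Ratios of FPKM within a library show which members kept pace with each other. In all, 8 pairs were compared by a two-sided exact permutation test over libraries. With 3 libraries against 3 that test cannot give a p below 0.1, so no pair could pass.

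The log2 ratio of RGS5 to PECAM1 was -0.31, -0.50 and 0.03 in the day 85 libraries, against -0.85, -0.18 and -0.35 at day 45. These overlap, and the difference in means of 0.20 was smaller than the SD at either age, 0.27 at day 85 and 0.35 at day 45 (exact permutation p = 0.5). RGS5 and PECAM1 each rose, by 1.87 and 1.66 on the log2 scale, and their ratio differed by 0.01 to 0.34 with single libraries left out.

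ACTA2 set against the same endothelial gene was lower at day 85. Its log2 ratio to PECAM1 was 2.51, 2.36 and 2.58 at day 85 and 4.04, 3.69 and 3.68 at day 45, a difference of -1.32 with no overlap (exact permutation p = 0.1, adjusted over the 8 pairs 0.133). The log2 ratio of ACTA2 to RGS5 likewise differed by -1.52, at 2.74 ± 0.17 at day 85 and 4.26 ± 0.55 at day 45 (SD, n = 3 each; exact permutation p = 0.1). MYH11 to PECAM1 had a mean log2 ratio of -2.92 ± 0.14 at day 85 and -3.60 ± 1.23 at day 45 (SD, n = 3 each; exact permutation p = 0.6). The difference of 0.68 rests on day 45 replicate 2, and without it was -0.03. MYH11 to ACTA2 was higher at day 85 by 2.01, without overlap, and by 1.35 with day 45 replicate 2 left out.

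In the PDGF axis the receptor row exceeded the ligand row in FPKM at both ages, by a margin that was smaller at day 85. The log2 ratio of PDGFRB to PDGFB was 0.25, 0.91 and 1.19 at day 85 and 1.96, 2.42 and 2.41 at day 45, which do not overlap (difference -1.48, exact permutation p = 0.1). RGS5 to PDGFRB, both of pericytes, was -0.06 ± 0.78 at day 85 and -1.44 ± 0.46 at day 45 (SD, n = 3 each), a difference of 1.37 without overlap (exact permutation p = 0.1). Both ratios use the PDGFRB row named in the table. The row named by the ID list had a mean of 73.1 FPKM at day 85 and 62.3 FPKM at day 45. PDGFB had more FPKM (24.9) than CPM (12.2) at day 85, so its counted length was shorter than its span of 1824 bases. Whether that row covers the whole transcript was not tested. The same limits apply to the FPKM ranks of both genes. CSPG4 to ACAN was higher at day 85 by 1.01 (exact permutation p = 0.1), at -1.93 ± 0.83 against -2.94 ± 0.26 at day 45 (SD, n = 3 each). Without day 85 replicate 1 the difference was 0.54. Its ages barely separate, since day 85 replicate 2 stood at -2.61 and day 45 replicate 3 at -2.63.

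**Figure D4:**
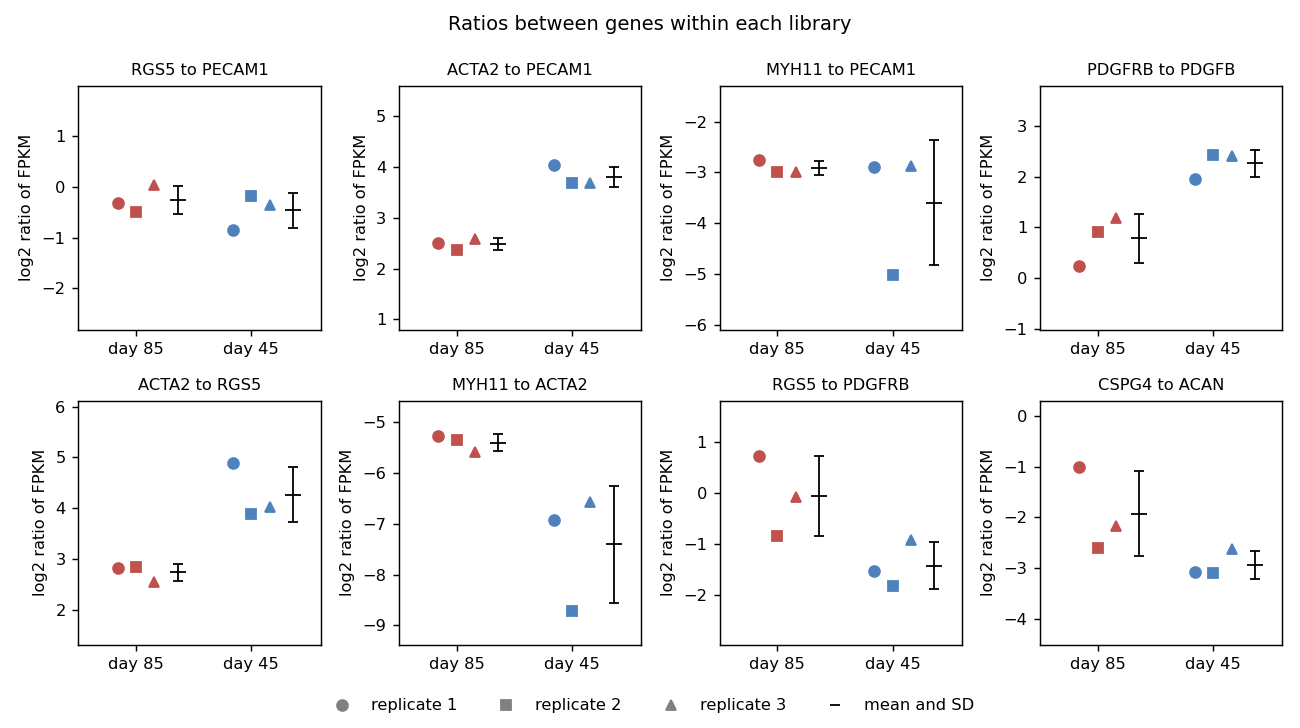
Log2 ratios of deposited FPKM for 8 pairs of genes in each library, day 85 left and day 45 right of each panel, with the mean and SD of 3 libraries; every vertical axis spans the same range. RGS5 to PECAM1 overlaps between ages, whereas ACTA2 to PECAM1 is 2.36 to 2.58 at day 85 and 3.68 to 4.04 at day 45.

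Of 16 further pericyte genes that could be tested, 0 were called in either direction by edgeR, where 6 had an unadjusted p under 0.05, against 29.1% of all tested genes; DESeq2 called 4 higher and 3 lower, and limma-voom 1 higher. Over all tested genes DESeq2 called 12.6% higher and 10.8% lower, and limma-voom 3.48% higher. The median log2 fold change of the 16 pericyte genes was 0.28, with 10 positive and 6 negative. Every day 85 library was higher for 3 of them and lower for 2, as for 17.4% and 17.6% of all tested genes. The 2 most abundant were THY1, a surface glycoprotein shared with fibroblasts, at 313 ± 90.8 CPM at day 85, against 411 ± 12.4 CPM at day 45 (SD; log2 change -0.39, standard error 0.22, adjusted p = 0.275), and CD248, endosialin, at 143 ± 42.3 CPM at day 85, against 270.4 ± 27.1 CPM at day 45 (SD; log2 change -0.91, standard error 0.24, adjusted p = 0.0645). The subunits of the potassium channel that marks pericytes had values nearer to RGS5, and are named after their values were seen. KCNJ8 stood at 36.7, 25.6 and 32.0 CPM at day 85, against 10.5, 9.09 and 18.8 CPM at day 45 (log2 change 1.30, standard error 0.30, adjusted p = 0.0522). ABCC9 differed by 1.20 log2 units (standard error 0.51, adjusted p = 0.183), and NOTCH3, the Notch receptor of mural cells, also named after its values were seen, by 1.27 (standard error 0.43, adjusted p = 0.121). Other genes of the list went the opposite way, and 2 are likewise named after their values were seen. NDUFA4L2 differed by -1.07 (standard error 0.44, adjusted p = 0.175) and EDNRA by -0.72 (standard error 0.24, adjusted p = 0.116).

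Among the R4 family of small RGS proteins, to which RGS5 belongs, 1 of 6 tested was called higher and 0 lower by edgeR. DESeq2 called 2 higher and limma-voom 1. Of all tested genes, edgeR called 3.90% higher, DESeq2 12.6% and limma-voom 3.48%. RGS1, a regulator of lymphocytes and other immune cells, rose 4.37-fold from a low level, with 2.24, 4.53 and 2.84 CPM at day 85, against 0.429, 0.649 and 1.11 CPM at day 45 (log2 change 2.13, standard error 0.45, adjusted p = 0.0433). Macrophage markers took 0.0273% to 0.0747% of counts at day 85 and 0.00783% to 0.0147% at day 45. Of 7 tested, 4 were called higher by edgeR, where 3.90% of all tested genes were. The part of macrophages in the RGS1 level was not tested. RGS3 and RGS2, the most abundant members, differed by -0.41 and 0.12 log2 units (standard errors 0.29 and 0.28, adjusted p = 0.384 and 0.797).

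Of 14 further contractile and cytoskeletal genes, 1 was called higher and 0 lower by edgeR. DESeq2 called 3 higher, and limma-voom 0, so that the edgeR call was lost there. Of all tested genes, edgeR called 3.90% higher, DESeq2 12.6% and limma-voom 3.48%. PLN, phospholamban, which restrains the calcium pump of the sarcoplasmic reticulum in heart, slow skeletal and smooth muscle, stood at 12.5, 2.00 and 6.59 CPM at day 85, against 0.857, 0.577 and 0.981 CPM at day 45, an 8.60-fold rise (log2 change 3.10, standard error 0.69, adjusted p = 0.0491). The most abundant were DES, desmin, the intermediate filament of all muscle, at 4849, 345 and 4414 CPM at day 85, against 716, 375 and 903 CPM at day 45 (adjusted p = 0.169), and TPM2, a tropomyosin, at 3179, 431 and 2665 CPM at day 85, against 675, 495 and 686 CPM at day 45 (adjusted p = 0.156). In these genes day 85 replicate 2 was lowest of its age, as in the skeletal muscle markers. Of 13 tested skeletal muscle markers, 0 were called by edgeR, 5 higher by DESeq2 and 0 by limma-voom, and 6 had an unadjusted p under 0.05 in edgeR, against 29.1% of all tested genes. Their median log2 fold change was 1.71, with 13 positive.

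Transcription factors of the smooth muscle programme gave 0 calls among 5 tested by edgeR, DESeq2 or limma-voom and 0 with an unadjusted p under 0.05 in edgeR, with a median log2 fold change of 0.31. SRF, serum response factor, named here for its role in the programme after its values were seen, was at 37.3, 66.1 and 39.0 CPM at day 85, against 35.8, 35.5 and 38.4 CPM at day 45 (log2 change 0.38, standard error 0.23, adjusted p = 0.320). MEF2C and KLF4, the most abundant of the list, stood at 161 ± 60.6 and 54.0 ± 16.5 CPM at day 85, against 148 ± 8.79 and 67.8 ± 3.30 CPM at day 45 (SD; adjusted p = 0.802 and 0.340). MYOCD and its relatives MRTFA and MRTFB carried no row under these names and were not analysed here.

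**Figure D5:**
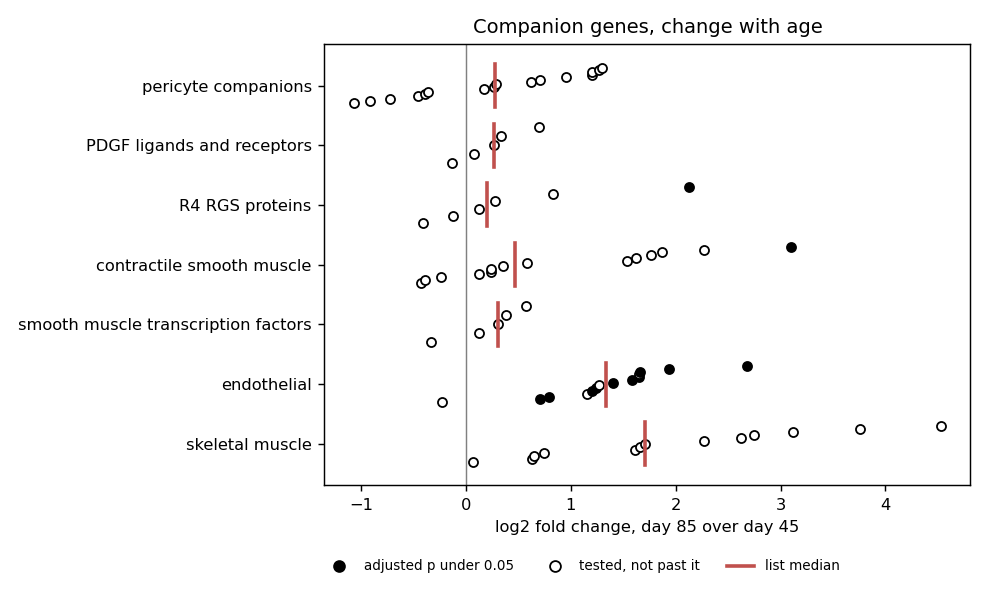
Log2 fold changes of day 85 over day 45 for tested genes of 7 lists related to the members, filled where the adjusted p was under 0.05, with the list median as a vertical bar. The pericyte, PDGF, RGS and contractile lists have medians of 0.20 to 0.46 and at most 1 called gene each, while 10 of 14 endothelial genes are filled, with a median of 1.34.

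The endothelial list is the nearest comparison, since mural cells lie on endothelium. Of its 14 tested genes, 10 were called higher and 0 lower by edgeR, where 3.90% of all tested genes were called higher. DESeq2 called 13 higher and limma-voom 10, against 12.6% and 3.48% of all tested genes. In 13 of them every day 85 library lay above day 45, as in 17.4% of all tested genes. The median and calls of this list stand beside those of the pericyte companions as descriptions, and the difference between the lists was not tested. VWF, MMRN2, PECAM1 and FLT1 rose 6.40-fold, 3.85-fold, 3.15-fold and 3.13-fold (adjusted p = 0.0160, 0.0443, 0.0362 and 0.0432). The 10 called genes ran from 1.64-fold to 6.40-fold, and PDGFB at 3.98-fold, RGS5 at 3.65-fold and MCAM at 2.24-fold lie within that range. All of these were called higher at the same threshold, so the shared range is a description only. Of the 14 tested endothelial genes 1 had a negative log2 fold change, ERG at -0.23 (standard error 0.17), named after its values were seen.

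Among other cell types the tissue could hold, 0 of 8 tested osteoblast genes, 0 of 8 tested fibroblast and tendon genes and 0 of 6 tested Schwann cell and melanocyte genes were called by edgeR, with median log2 fold changes of 0.25, -0.39 and 2.01. An unadjusted p under 0.05 was reached by 2, 2 and 0 of them, and by 29.1% of all tested genes. DESeq2 called 2 osteoblast genes higher and 2 fibroblast and tendon genes lower, where it called 12.6% of all tested genes higher and 10.8% lower. In limma-voom 1 osteoblast gene was called higher, as were 3.48% of all tested genes. The part of these cells in the members' levels was not tested.

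By Pearson's r of log2 CPM over the 6 libraries, the genes most like RGS5 among 8218 named genes with a mean of at least 10 CPM were HMCN2 (0.995), TXNIP (0.995), FZD4 (0.994), TACO1 (0.993) and ADGRL4 (0.992). The first of these, HMCN2, stood at 146, 19.8 and 166 CPM at day 85, against 0.796, 0.721 and 4.06 CPM at day 45. FZD4 and ADGRL4 were picked from the list for description after their values were seen. FZD4, a Frizzled receptor of vessel growth in the retina, stood at 180, 126 and 167 CPM at day 85, against 61.7, 64.5 and 82.4 CPM at day 45. ADGRL4, an adhesion receptor of endothelium, stood at 37.7, 24.3 and 32.7 CPM at day 85, against 8.20, 9.88 and 13.5 CPM at day 45. For CSPG4 the nearest were RWDD2A (0.992), PTN (0.992), TMEM107 (0.989), INTS2 (0.989) and CSDC2 (0.988). Here the first, RWDD2A, stood at 13.3, 15.3 and 16.5 CPM at day 85, against 20.2, 20.3 and 20.4 CPM at day 45. PTN, pleiotrophin, a growth factor abundant in fetal cartilage, stood at 71.8, 105 and 151 CPM at day 85, against 199, 235 and 217 CPM at day 45. Like FZD4 and ADGRL4, PTN was picked after its values were seen. For ACTA2 they were ZFP28 (0.995), MOB4 (0.963), PALMD (0.962), INPP4B (0.962) and PSMD12 (0.961). With 6 libraries in 2 ages that do not overlap for RGS5 or CSPG4, r includes the step between ages, and all genes of a library share its tissue make-up and depth, so these names are a description.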

How the data were processed

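The authors deposited 1 table of whole-number read counts per Ensembl pig gene row with FPKM values beside them, per the file headers. Per the submitters' processing notes, HISAT2 was among the tools used; its version, the counting tool, strandedness, genome build and annotation were not stated. For 10748 genes with at least 50 counts in every library, the deposited FPKM equalled the count over the library total and a factor per gene, within 0.0015%.

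The table names 16162 rows, and a list of IDs and symbols names 1774 more. Where several rows share a name, a row named in the table was taken before a row named by the list. Among rows of the same source the row with the most counts was used. For PDGFRB the row named in the table was therefore used, although the row named by the list had more counts. The test of counts was that of edgeR 4.0.16, run in R 4.3.3 (filterByExpr with a minimum count of 10, TMM, robust dispersion, quasi-likelihood F test, age as the only factor), and the SE is the log2 fold change over the square root of F. Ratios used deposited FPKM with no pseudocount and an exact permutation test in scipy 1.17.1. Alternatives were other scalings and filters, DESeq2 1.42.0, limma-voom 3.58.1, the replicate number as a block and leaving out each library.

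The members and the 12 companion lists, with 140 entries, were chosen with earlier results of these data known. The text names all 9 members, and per list up to 4 called genes, largest change first, that reach 1 CPM or, with fewer than 2 called, the 2 most abundant; genes outside this rule are marked or serve as partners. Of the cartilage, osteoblast, fibroblast, macrophage and Schwann cell lists counts are given in place of names, and of the skeletal muscle list the partner ACTA1 alone. The fit was also run on simulated counts that held no deviating library and no shift in tissue make-up. That run therefore does not bear on how far the calls depend on single libraries. No pair of libraries was a duplicate, with a chi-square per degree of freedom of 21.5 or more.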

Additional observations from a re-analysis of the deposited data

How the results depend on the processing

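Over the 14 alternatives to the main edgeR analysis, no member changed the sign of its log2 fold change. With all libraries kept, the only calls that changed were those of RGS5, lost with library totals as the only scaling (adjusted p = 0.0513), and TAGLN, gained with DESeq2 (adjusted p = 0.00567). Leaving out single libraries moved the count of called genes from 986 to between 0 and 3412: 16, 3412 and 118 when day 85 replicate 1, 2 or 3 was left out, and 4, 0 and 20 when day 45 replicate 1, 2 or 3 was. It moved the count of named members called higher from 3 to between 0 and 3, with 0 called lower throughout. In the edgeR fit with 0 called genes, without day 45 replicate 2, 3056 of 15389 tested genes had an unadjusted p under 0.05. RGS5, MCAM, PDGFB, CSPG4, MYH11 and TAGLN were among them. DESeq2 called 3834 genes. Library totals as the only scaling gave 437 higher and 598 lower, against 586 and 400 with TMM; the cause of these shifts was not tested. The log2 ratio of MYH11 to PECAM1 was 0.68 with all libraries and -0.03 to 1.04 with single libraries left out, the lowest without day 45 replicate 2, and no other ratio changed sign.

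Replicate numbers do not pair the libraries by the labels, and same-numbered libraries had deviations correlated at 0.01, 0.25 and 0.04. With the replicate number as a block, 682 genes were called and 3 of the named members were higher, with RGS5, MCAM, PDGFB and CSPG4 at adjusted p = 0.0426, 0.0432, 0.0332 and 0.0493. Depth limits MYH11 at day 45, where 1 library held 11 counts, and PDGFB, with 42 to 51 counts there.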
